A study of Mus musculus with 22 samples.

Results

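DNA methylation of mammary glands at hyperplasia, the first lesion stage of the MMTV-PyMT mouse, was compared with that of normal glands of the same age. The comparison held 5 of the 22 samples of the series, chosen by their labels: 2 PyMT samples and 3 FVB controls of week 6. Of the 1586199 autosomal CpG positions seen in at least 1 sample of the series, the 1211575 covered by at least 10 reads in all 5 samples were tested. PyMT mice were F1 females heterozygous for the transgene, from male PyMT mice crossed with homozygous FVB females, and the controls were homozygous FVB females of the same age. Each sample was DNA from bulk mammary tissue of a separate mouse. The labels call the tissue of the week 6 PyMT mice and of all controls mammary gland and that of the later PyMT mice tumor, while the methods speak of tumors for the PyMT mice without setting week 6 apart, so the tissue of the PyMT and control samples may differ in how much lesion and normal gland it held. PyMT tumors of weeks 8, 10 and 12 (adenoma/MIN, early carcinoma and late carcinoma) and their own controls made up the rest of the series. The labels give the disease state of the week 6 PyMT samples as carcinoma, while the study names this stage hyperplasia. The study set out with 3 replicates per group and removed 2 outlier samples, and replicates 1 and 2 of the week 6 PyMT mice were analysed here.

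In this model the MMTV promoter drives the polyoma virus middle T antigen, an oncoprotein that activates Src and PI3-kinase signalling, in the mammary epithelium. DNA methylation in mammals sits mostly on the cytosine of CpG pairs. CpG-rich promoters are as a rule unmethylated, promoters poor in CpG and gene bodies are often methylated, and regulatory regions of a cell type tend to lose methylation in that cell type. A gland holds luminal and basal epithelium, fat cells, fibroblasts, vessels and immune cells, so a level measured here is a mean over all of them. A change in the share of a cell type and a change of methylation within cells cannot be told apart in these samples. RNA was not analysed here, so promoter methylation is not a reading of which cells were present.

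The 5 samples held 1329216 to 1435757 positions each, at a mean autosomal coverage of 63.8 to 73.1 reads. Methylated reads made up 0.172 to 0.239% of the reads at mitochondrial CpGs. In each of the 4 pairs of samples of one group the reads differed beyond sampling noise (mean chi-square 2.86 to 3.88 for a position), and every sample entered as its own replicate. The mean methylation level over all tested positions was 25.4 and 25.2% in the PyMT samples and 26.5, 26.4 and 26.7% in the controls. The means were 25.3% ± 0.156 (SD, n = 2) and 26.5% ± 0.140 (SD, n = 3), a difference of -1.25 points without overlap of the groups (two-sided exact permutation test, p = 0.1, the smallest that 10 arrangements of 2 against 3 samples allow). Weighted by reads the difference was -0.758 points and the groups overlapped (exact permutation test, p = 0.7).

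The units compared were single CpG positions, promoters (2 kb on each side of the transcription start site, TSS, with at least 5 tested positions) and CpG clusters (at least 5 tested positions, none more than 100 bp from the next, drawn without regard to methylation). Sequences of some of the clusters and promoters with the largest differences follow, as examples of the DNA that changed. They are the forward strand of the RefSeq copy of GRCm38 (mm10), and capitals mark the CpGs of which at least 1 strand was tested. The first 3 gained methylation, all in coding exons, while other large gains lay in an intron or outside genes.

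Shroom1, coding exon, 6607 bp downstream of the TSS, chr11:53463714-53463910: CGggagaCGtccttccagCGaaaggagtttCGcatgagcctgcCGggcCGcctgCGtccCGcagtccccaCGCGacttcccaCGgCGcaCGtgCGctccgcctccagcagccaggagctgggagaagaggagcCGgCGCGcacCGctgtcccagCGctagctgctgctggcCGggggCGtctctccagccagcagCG
Epn3, coding exon, chr11:94491205-94491452: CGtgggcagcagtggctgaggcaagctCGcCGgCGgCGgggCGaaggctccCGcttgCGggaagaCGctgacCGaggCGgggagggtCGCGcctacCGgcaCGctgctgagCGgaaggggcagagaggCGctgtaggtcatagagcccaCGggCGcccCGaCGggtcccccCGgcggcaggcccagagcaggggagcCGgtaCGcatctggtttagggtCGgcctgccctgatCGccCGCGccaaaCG
Fam83h, coding exon, 5159 bp downstream of the TSS, chr15:76004312-76004367: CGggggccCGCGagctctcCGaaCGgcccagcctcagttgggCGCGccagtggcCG

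The next 5 lost methylation.

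Fam110a, coding exon, chr2:151970097-151970160: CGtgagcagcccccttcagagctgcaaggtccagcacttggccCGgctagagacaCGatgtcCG
Iqcn, coding exon, 6456 bp downstream of the TSS, chr8:70708442-70708521: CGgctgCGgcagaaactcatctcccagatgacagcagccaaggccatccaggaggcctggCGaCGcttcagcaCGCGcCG
Npc2, coding exon, 12352 bp downstream of the TSS, chr12:84760681-84760839: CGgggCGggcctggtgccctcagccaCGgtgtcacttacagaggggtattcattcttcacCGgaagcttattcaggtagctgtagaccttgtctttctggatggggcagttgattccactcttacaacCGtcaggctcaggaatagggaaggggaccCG
Axin1, coding exon, chr17:26188131-26188184: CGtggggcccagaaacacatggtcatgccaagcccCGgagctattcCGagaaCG
Tiam1, coding exon, chr16:89884713-89884830: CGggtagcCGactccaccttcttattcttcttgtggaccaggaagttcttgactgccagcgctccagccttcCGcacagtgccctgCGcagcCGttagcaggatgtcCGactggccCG

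The last 4 are the stretches that hold all tested positions of 4 promoters, with a gain at Klb and a loss at Bglap3, Grk1 and Msln.

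Klb, promoter, chr5:65348440-65348685: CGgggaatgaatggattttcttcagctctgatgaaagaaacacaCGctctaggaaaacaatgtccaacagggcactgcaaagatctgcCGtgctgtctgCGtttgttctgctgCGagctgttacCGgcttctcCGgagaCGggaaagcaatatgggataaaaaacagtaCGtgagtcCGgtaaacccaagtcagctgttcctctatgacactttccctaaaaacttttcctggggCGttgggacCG
Bglap3, promoter, chr3:88372956-88373062: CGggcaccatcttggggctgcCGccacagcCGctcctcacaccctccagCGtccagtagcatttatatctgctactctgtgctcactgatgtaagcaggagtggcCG
Grk1, promoter, chr8:13405172-13405236: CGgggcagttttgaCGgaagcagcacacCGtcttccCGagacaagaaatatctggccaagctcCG
Msln, promoter, chr17:25752379-25752474: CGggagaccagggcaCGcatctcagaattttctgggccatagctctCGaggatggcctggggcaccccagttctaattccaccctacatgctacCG

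The Shroom1 and Epn3 clusters are dense in CpG, with 23 CpGs in 197 bases and 30 in 248, and all 30 tested positions of the first and all 37 of the second were hyper-DMCs. The losses shown here are sparser, with 4 CpGs in the 64 bases of Fam110a and 6 in the 159 bases of Npc2. Large gains not shown could be sparse too, as near 4930543E12Rik with 5 CpGs in 73 bases. Over all called clusters the medians were close, at 7.13 CpGs per 200 bp for gains and 6.50 for losses. Clusters that overlap an annotated untranslated region were left out when these sequences were chosen.

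At the level of single positions, losses outnumbered gains. A position was called a differentially methylated cytosine (DMC) when its q-value was under 0.01 in a logistic regression on the reads (likelihood-ratio test, Benjamini-Hochberg) and the pooled levels differed by at least 10 points. There were 29833 hyper-DMCs (2.46% of the positions) and 70978 hypo-DMCs (5.86%). Near a TSS the directions were balanced, with 2544 hyper-DMCs and 2555 hypo-DMCs within 500 bp, while beyond 50 kb there were 6572 and 20673. The hyper-DMCs thus made up 49.9% of the DMCs within 500 bp of a TSS and 24.1% of those beyond 50 kb. The room for a call differed too: CpG clusters had a median control level of 0.214% within 500 bp and of 80.8% beyond 50 kb. A position under 10% in the controls cannot lose 10 points, and a nearly fully methylated one has little room to gain. The part of the starting level in these shares was not tested. DMCs were rare near start sites in both directions: 0.454% of the positions within 500 bp were hyper-DMCs, against 5.49% of those at 10 to 50 kb. This test takes reads and not mice as replicates. With a correction for the spread between mice 10166 hyper-DMCs and 29842 hypo-DMCs were left, and without PyMT replicate 1 the hyper-DMCs numbered 16763.

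**Figure D1:**
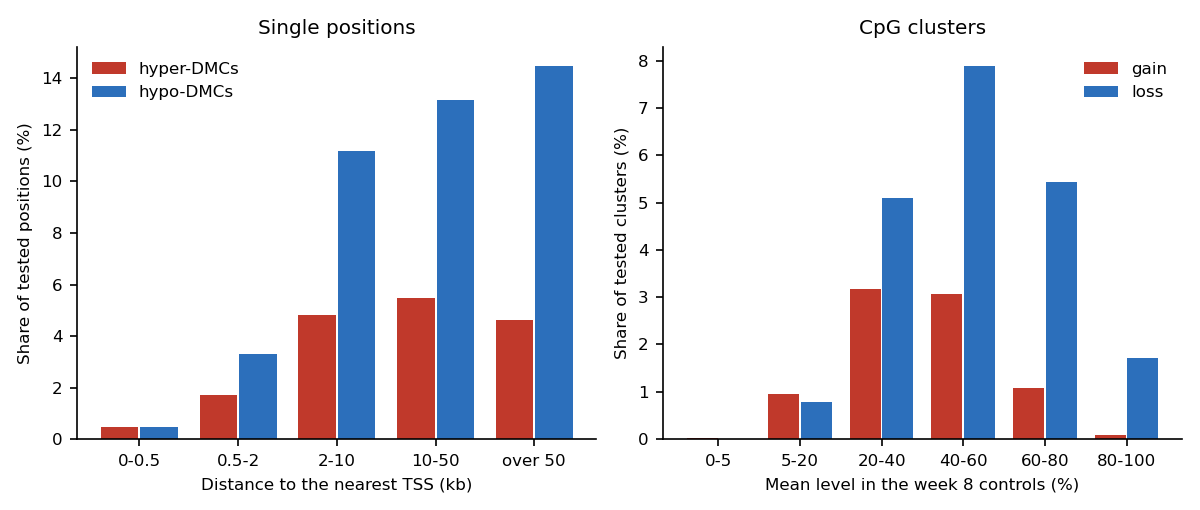
Share of tested positions called hyper- or hypo-DMC by distance to the nearest TSS (left) and share of tested CpG clusters called as gain or loss by the mean level of the week 8 controls, samples outside the comparison (right). The hyper- and hypo-DMC bars are of about equal height within 500 bp of a TSS, and the losses exceed the gains in clusters at 40 to 60% in those controls (7.90% against 3.08%).

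With mice as replicates, 303 of the 50973 CpG clusters gained methylation (0.594%) and 997 lost it (1.96%), by limma on logit-scaled levels with an adjusted p under 0.05 and a difference of at least 10 points. The median difference was 25.5 points over the gains and -30.6 points over the losses, and the medians of the PyMT and control levels were 74.7 and 47.1% at the gains and 22.7 and 64.1% at the losses. In all of them the PyMT samples lay outside the range of the controls, as they did upward in 14.8% and downward in 23.2% of all clusters. Only 9.90% of the gains and 11.1% of the losses lay in promoters, which held 44.0% of all clusters. Promoter clusters had a median control level of 0.278%, which leaves most of them no room for a loss of 10 points. Introns held 46.2% of the gains and 31.8% of the losses, against 18.4% of all clusters. Called clusters were sparser in CpG than all clusters, with a median of 7.13 CpGs per 200 bp at gains and 6.50 at losses against 9.83. They stood at intermediate levels in the week 8 controls, with medians of 47.2 and 64.2%. Of the 21595 clusters under 5% in those controls, 5 gained methylation. Clusters with most of their positions in repeats were called rarely, with 2 gains and 38 losses of 3212.

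Among the clusters that gained most, the coding-exon cluster of Shroom1, an actin-binding protein gene, stood at 73.6 and 65.5% in the PyMT samples and at 14.5, 21.8 and 12.3% in the controls (difference 53.4 points, adjusted p = 0.038, limma). The coding-exon cluster of Epn3, an endocytic adaptor, was at 63.6 and 62.6% against 14.8, 14.96 and 11.2% (49.4 points, adjusted p = 0.038). At both the groups lay far apart. Further large gains lay in an intron of Ctif, in a coding exon of Fam83h, and outside genes near 4930543E12Rik, Mir6516 and Foxc1, the last upstream of this forkhead factor gene, at 88.8 and 84.7% against 43.4, 39.3 and 42.4%. Their differences ran from 45.0 to 48.7 points. The Foxc1 gain rests on 5 positions at a mean coverage of 22.8 reads, and it did not pass at week 8 (adjusted p = 0.051, limma). Another Foxc1 cluster, 5157 bp downstream of the TSS with 50 positions, was lower, at 7.61 and 10.4% against 30.8, 33.1 and 35.6% (-24.1 points, adjusted p = 0.042).

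The largest called loss was in a coding exon of Fam110a, at 27.3 and 20.4% in the PyMT samples and at 85.4, 93.8 and 95.4% in the controls (-67.6 points, adjusted p = 0.038, limma). A coding exon of Iqcn followed, at 28.2 and 16.7% against 87.2, 85.9 and 89.3% (-65.0 points). The coding-exon cluster of Nr4a1, an orphan nuclear receptor, was at 22.1 and 22.1% against 86.7, 80.4 and 85.4% over 18 positions, all of them hypo-DMCs (-62.0 points). These clusters were mostly methylated in normal glands and mostly unmethylated in the PyMT glands. Coding-exon clusters of Map1b, a microtubule-associated protein, of Npc2, a cholesterol transfer protein, of Axin1, the scaffold of the beta-catenin destruction complex, and of Tiam1, an activator of Rac, and an exon cluster of Sspn differed by -60.1 to -63.5 points. All 8 of the largest losses lay in exons.

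Of 15254 promoters, 159 were more methylated in the PyMT samples (1.04%) and 349 less (2.29%) at an adjusted p under 0.05 (limma, no minimum difference). Gene positions below are on GRCm38. The gains were small as a rule, with a median of 4.62 points and 46 of at least 10 points. The losses had a median of -7.15 points, and 141 were of at least 10 points. The gains started from promoters at a median of 2.53% in the controls and the losses from promoters at 13.3%. The adjusted p-values of the called promoters were all 0.0171 or above. In a fit of week 6 alone, leaving out any one of the 5 samples left at most 1 gain and 3 losses of promoters and 0 clusters. In one fit over all 8 groups, which pools the spread of all 22 samples, 586 promoter gains and 944 losses (3.91 and 6.30% of promoters) and 1344 cluster gains and 3318 losses (2.83 and 6.98% of clusters) passed. With each week 6 sample left out in turn it gave 262 to 553 promoter gains and 451 to 955 promoter losses, the fewest without PyMT replicate 1.

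As a background, normal glands of week 8 were compared with those of week 6, which are also the controls here. None of 15101 promoters and none of 49161 clusters passed (limma, 0 called), and 569 promoters (3.77%) and 1866 clusters (3.80%) had an unadjusted p under 0.05. In the hyperplasia comparison these numbers were 2780 (18.2%) and 11211 (22.0%).

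**Figure D2:**
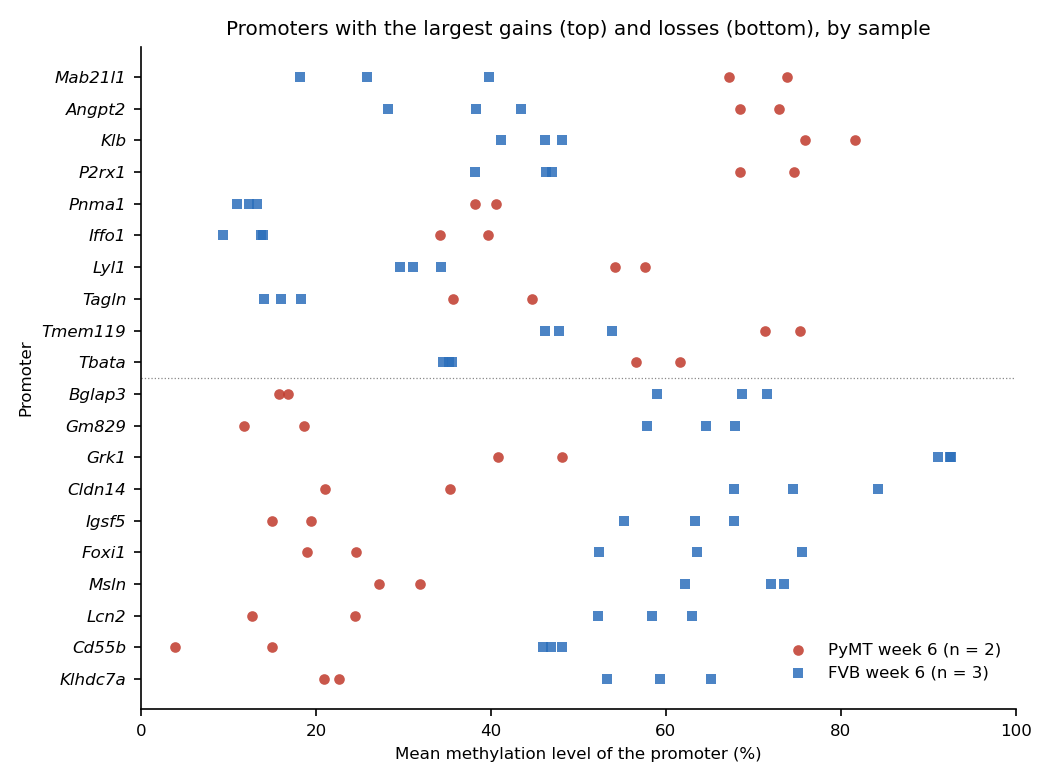
Mean methylation level (%) of the 10 protein-coding promoters with the largest gain and the 10 with the largest loss, 1 point per sample (circles, 2 PyMT samples; squares, 3 FVB samples). The promoters were chosen among those without overlap of the 2 groups, and the spread of the controls is widest at Foxi1 and Mab21l1.

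The promoter with the largest gain was that of Mab21l1 (chr3:55782510-55785287), a gene needed for eye development, at 73.8 and 67.2% in the PyMT samples and at 25.9, 39.8 and 18.2% in the controls (42.6 points, adjusted p = 0.049, limma). Angpt2 (chr8:18690263-18741562), a ligand of the Tie2 receptor of endothelial cells, was at 72.9 and 68.4% against 38.3, 43.4 and 28.3% (34.0 points, adjusted p = 0.035). Klb (chr5:65348411-65386957), the co-receptor of FGF21, was at 81.6 and 75.9% against 48.1, 41.1 and 46.2% (33.6 points, adjusted p = 0.019), over the 15 positions of the stretch shown above. Separation of every PyMT sample from every control was a condition for naming these promoters and is not a result. P2rx1, an ATP-gated ion channel, differed by 27.7 points. Lyl1 (chr8:84701423-84704716), a transcription factor of blood and endothelial cells, was at 57.6 and 54.2% against 31.1, 34.3 and 29.6% (24.2 points, adjusted p = 0.019). Tmem119, known as a marker of microglia, and Tbata, a gene of thymus, brain and testis, each differed by 24.0 points, and Iffo1, of the intermediate filament family, by 24.6 points.

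Pnma1 (chr12:84146131-84148489), which encodes a paraneoplastic Ma antigen, combined a large gain with many positions. Its promoter was at 40.6 and 38.1% in the PyMT samples and at 12.4, 13.3 and 10.9% in the controls over 59 positions, 52 of them hyper-DMCs (27.2 points, adjusted p = 0.017, limma). The gain was not spread evenly: the 38 positions with at least 20 points lay 10 to 450 bp downstream of the TSS. The 4 tested positions farther than 500 bp from the TSS were highly methylated in both groups.

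Over all promoters the largest loss was at the microRNA gene Mir343, at 7.59 and 19.5% in the PyMT samples and at 84.4, 73.1 and 94.3% in the controls (-70.4 points, adjusted p = 0.038, limma). Lcn2 (chr2:32384637-32387739), which encodes the siderophore-binding protein lipocalin 2, was at 12.7 and 24.5% in the PyMT samples and at 58.4, 52.2 and 63.0% in the controls (-39.2 points, adjusted p = 0.032, limma). Msln (chr17:25748613-25754378), which encodes mesothelin, was at 27.2 and 31.8% against 62.2, 72.0 and 73.5% (-39.7 points, adjusted p = 0.023). Cldn14 (chr16:93919031-94008837), a claudin of tight junctions, was at 21.0 and 35.3% against 74.5, 67.8 and 84.2% (-47.4 points, adjusted p = 0.041), and the tight junction protein gene Igsf5 was at 14.9 and 19.4% against 63.3, 55.2 and 67.7% (-44.9 points, adjusted p = 0.019). At these 4 promoters the lowest control lay far above the higher PyMT sample.

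Among protein-coding genes the largest loss was at Bglap3 (chr3:88368616-88372741), an osteocalcin-related gene, at 15.8 and 16.7% against 71.5, 59.0 and 68.7% (-50.1 points, adjusted p = 0.017, limma). Grk1 (chr8:13405081-13421951), the rhodopsin kinase of the retina, was at 48.2 and 40.8% in the PyMT samples and was nearly fully methylated in the controls, at 92.4, 92.6 and 91.1% (-47.6 points, adjusted p = 0.017). Foxi1 (chr11:34204341-34208089), a forkhead factor known from ionocytes, the inner ear and the kidney, was at 24.6 and 18.9% against 63.6, 52.3 and 75.6% (-42.1 points, adjusted p = 0.044). The predicted gene Gm829 differed by -48.2 points, the complement regulator Cd55b, which shares its promoter with Cd55os, by -37.5 points, and Klhdc7a, next to Mir2139, by -37.5 points. These promoters hold few tested positions, from 5 at Bglap3 and Msln to 24 at Klhdc7a, so each value stands for a short stretch or a few.

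Lists of genes were then read, with 516 of their 613 genes tested. The genes of luminal epithelial identity, the keratins, claudins and adhesion proteins of the cells that line the ducts, were examined first. Of the 31 tested promoters, 10 were lower in the PyMT samples and none higher, against 2.29 and 1.04% of all promoters. In 24 of the 31 both PyMT samples lay below all controls, against 21.2% of all promoters, and the list's median difference was -1.72 points against -0.0475 over all promoters. The list's median control level was 3.44%, against 0.585% over all promoters, so its promoters had more room for a loss. The part of the starting level in these shares was not tested. In the fit over all 8 groups 16 of the 31 were lower and none higher, against 6.30% of all promoters lower.

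Cldn4 (chr5:134945123-134946934), a claudin of tight junctions, led the list. Its promoter was at 8.97 and 11.7% in the PyMT samples and at 37.2, 39.7 and 45.2% in the controls (-30.4 points, adjusted p = 0.017, limma), and 26 of its 30 positions were hypo-DMCs. Krt7 was at 17.0 and 23.5% against 45.2, 36.6 and 41.7% (-20.9 points, adjusted p = 0.040). Krt18 (chr15:102028216-102032026), a keratin of simple epithelium, was at 14.4 and 13.9% against 28.03, 26.2 and 32.4% (-14.7 points, adjusted p = 0.024). Here most positions within 500 bp of the TSS were low in all samples, and the 12 positions with a loss of at least 20 points lay 660 to 1770 bp downstream. The promoter held 2 hyper-DMCs beside 12 hypo-DMCs, and its largest gain at a position was 18.1 points. In the Krt18 promoter a cluster 1275 bp downstream of the TSS was at 62.0, 67.4 and 66.5% in the controls and at 17.9 and 18.3% in the PyMT samples.

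Marveld2, the tricellulin of junctions between cell corners, was at 3.49 and 3.36% against 8.81, 8.55 and 9.97% (-5.68 points, adjusted p = 0.019, limma). The promoters of Tjp3, Cldn7, Krt8, Epcam, Grhl2 and St14 were also lower, with differences of -4.29 to -1.66 points, from mean levels of 2.51 to 7.60% in the controls. For Epcam, the epithelial cell adhesion molecule, the larger loss was outside the promoter, in an intron cluster 4559 bp downstream of the TSS, at 41.3 and 40.1% in the PyMT samples and at 84.0, 86.6 and 88.4% in the controls (-45.6 points, adjusted p = 0.038). Of the members that did not pass, Pkp3 was at 32.6 and 29.7% against 35.1, 41.2 and 37.9% (adjusted p = 0.19).

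**Figure D3:**
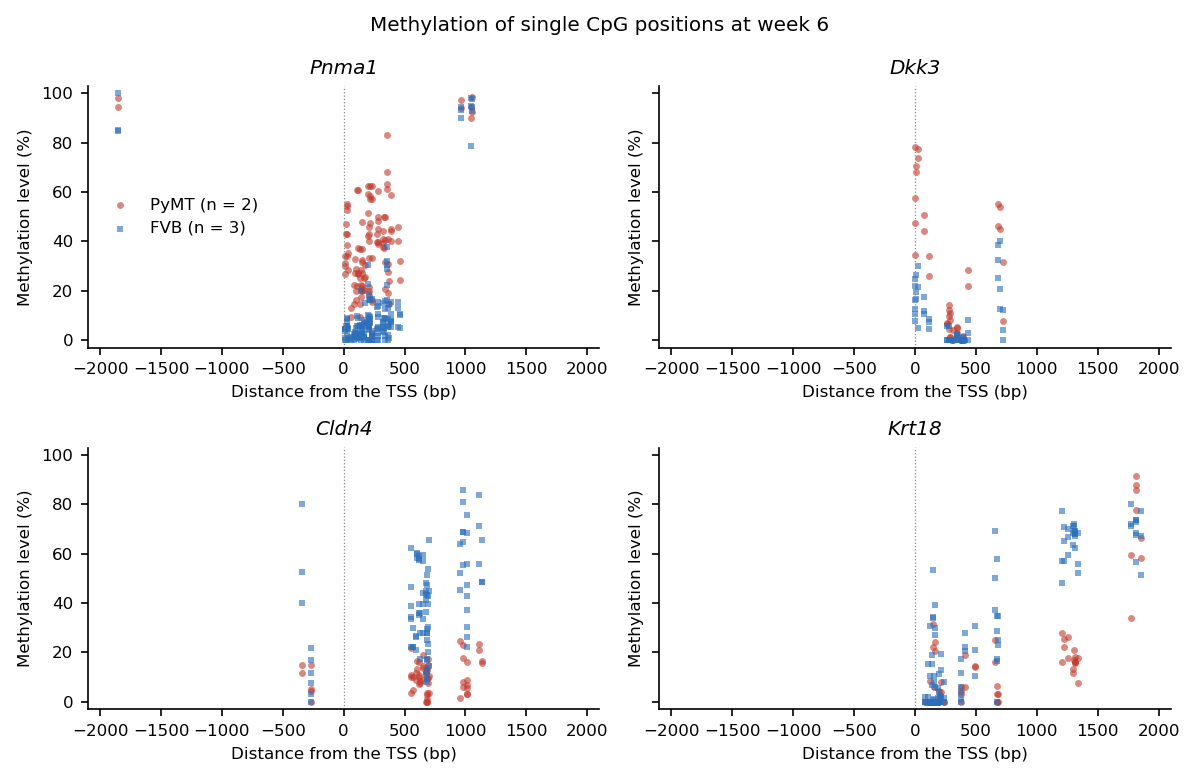
Methylation level (%) of each tested CpG position against its distance from the TSS in 4 promoters (circles, 2 PyMT samples; squares, 3 FVB samples). In Pnma1 and Dkk3 the PyMT points rise above the controls at and just downstream of the TSS. In Cldn4 and Krt18 the large differences lie below the controls, in Krt18 beyond 660 bp and with some positions higher.

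Regulators and products of the luminal lineage had 5 of 17 tested promoters lower and none higher, against 2.29 and 1.04% of all promoters. Their median control level was 3.18%, against 0.585% over all promoters. Elf5 (chr2:103412098-103450989), a factor of alveolar differentiation, was at 8.99 and 16.2% in the PyMT samples and at 29.8, 30.3 and 34.4% in the controls (-18.9 points, adjusted p = 0.046, limma). Gata3 (chr2:9857078-9887953), the main luminal transcription factor, was at 2.40 and 3.17% against 9.01, 8.99 and 13.6% over 81 positions (-7.74 points, adjusted p = 0.031). Within 500 bp of the TSS the Gata3 difference was -0.099 points (adjusted p = 0.88), and the called cluster of this gene lay 1908 bp from the TSS. Wap (chr11:6635483-6638654), the whey acidic protein of milk, was at 44.9 and 50.3% against 74.6, 77.2 and 78.4% (-29.1 points, adjusted p = 0.019). Lcn2, described above, and the casein gene Csn3 were the other two. The median of this list was -0.349 points, and Pgr, the progesterone receptor, did not pass, at 0.843 and 1.28% against 0.653, 0.633 and 0.545%.

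Genes of basal and myoepithelial cells went both ways, with 1 higher and 3 lower of 15, against 1.04 and 2.29% of all promoters. Tagln (chr9:45929628-45936058), which encodes the actin-binding transgelin of smooth muscle and myoepithelium, was at 44.7 and 35.7% in the PyMT samples and at 18.3, 16.05 and 14.02% in the controls (24.1 points, adjusted p = 0.024, limma). Sox10, a factor of neural crest and mammary progenitors, was at 6.21 and 8.53% against 19.02, 16.5 and 21.2% (-11.5 points, adjusted p = 0.028). Myh11, the smooth muscle myosin, was at 5.10 and 5.91% against 13.1, 13.5 and 16.3% (-8.78 points, adjusted p = 0.021). The R-spondin receptor gene Lgr6 was lower in its promoter by a small amount (-2.65 points, adjusted p = 0.032) and higher in 2 clusters within the gene, by 39.1 and 33.4 points.

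The other cell types of the gland are read against 1.04% higher and 2.29% lower of all promoters, so that none called in a list of this size says nothing about it. In the adipocyte list 0 of 21 passed in either direction (limma), with a median of -0.143 points, and in the leukocyte list 0 of 16, with a median of 0.229 points, and each list had 6 promoters at an unadjusted p under 0.05. In the fit over all 8 groups 1 adipocyte promoter was lower, and 2 of 14 leukocyte promoters were higher and 2 lower, against 3.91% higher and 6.30% lower of all promoters. In that fit 5 of 22 endothelial promoters were higher and none lower, and 2 of 18 fibroblast and stroma promoters were higher and 1 lower. Cfd, which encodes adipsin of fat cells, was at 45.7 and 61.6% against 63.4, 72.1 and 71.6% (adjusted p = 0.22). Of the endothelial genes 1 of 23 passed: Esam (chr9:37528089-37538319), an adhesion molecule of endothelial cells, was at 46.5 and 55.2% against 27.4, 31.0 and 24.1% (23.4 points, adjusted p = 0.036). In 10 of the 23 endothelial promoters both PyMT samples lay above all controls, against 14.0% of all promoters. Of the 118 CpG clusters in or near endothelial genes 0 gained and 2 lost methylation, at Flt1 (-40.2 points) and Kdr (-28.5 points). The adipocyte list had 1 gain and 2 losses of 57 clusters, and the leukocyte list 0 and 2 of 64. The fibroblast and stroma list had 0 and 1 of 77, against 0.594% gains and 1.96% losses of all clusters. Of the 19 fibroblast and stroma promoters, Fbn1, fibrillin 1, was higher (2.96 points, adjusted p = 0.030) and Meox1, a homeobox gene, lower (-14.0 points, adjusted p = 0.035). The mean level over the 31 luminal promoters was 4.28 and 4.37% in the PyMT samples and 7.73, 8.20 and 8.45% in the controls, and over the 23 endothelial promoters 13.8 and 13.6% against 12.4, 12.1 and 10.7%. The part of a changed cell mixture in these and all other differences was not tested.

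**Figure D4:**
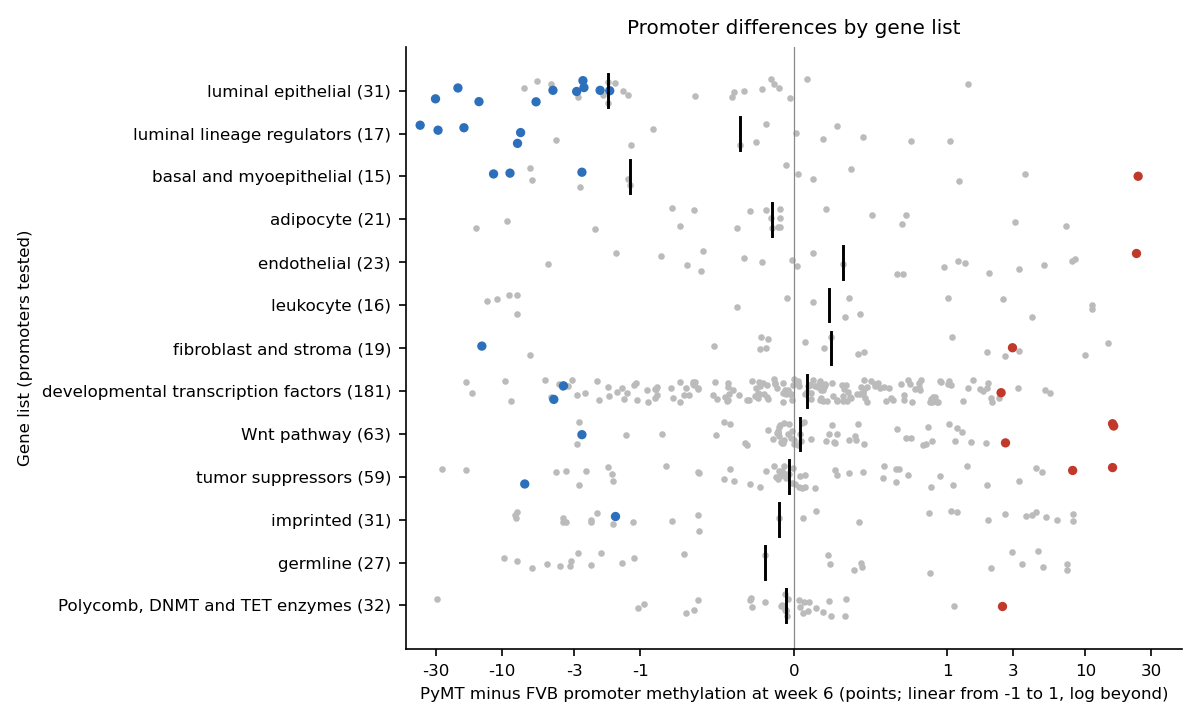
PyMT minus FVB difference of promoter methylation at week 6 (points, linear from -1 to 1 and logarithmic beyond), 1 point per promoter, by gene list, with the number of promoters tested. Red and blue points passed the limma test as higher and lower, grey points did not, and black bars are medians. The luminal epithelial list has the lowest median (-1.72 points) and 10 of its 31 promoters passed as lower.

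The Wnt pathway, which controls ductal stem cells and is read through Frizzled receptors, had 3 promoters higher and 1 lower of 63, against 1.04 and 2.29% of all promoters. In the fit over all 8 groups 7 of the 63 were higher and 4 lower, against 3.91 and 6.30% of all promoters. Fzd2, a Frizzled receptor (chr11:102604431-102608058), was at 30.1 and 20.2% in the PyMT samples and at 8.34, 10.8 and 8.28% in the controls (16.02 points, adjusted p = 0.039, limma), with 37 of 76 positions hyper-DMCs. Fzd5 was at 3.94 and 3.43% against 1.08, 0.984 and 1.08% over 174 positions (2.64 points, adjusted p = 0.023). Within 500 bp of the TSS the differences of both turned to -0.072 and -0.165 points and did not pass (adjusted p = 0.94 and 0.60), so their gains lay farther out. Dkk3, a secreted protein of the Dickkopf family (chr7:112116019-112159482), was at 24.5 and 21.2% against 8.21, 5.04 and 8.06% (15.7 points, adjusted p = 0.028). Its 8 positions with a gain of at least 20 points lay 0 to 701 bp downstream of the TSS, and the cluster 59 bp from it stood at 58.3 and 52.2% against 16.6, 10.96 and 17.96%. CpG clusters of the pathway went both ways, with 5 gains and 7 losses of 287, against 0.594 and 1.96% of all clusters. Among them were gains at Tcf7l2, the nuclear partner of beta-catenin, of 26.3 and 31.1 points and a loss of -19.2 points in the same gene. Further losses lay at the Wnt inhibitor Notum (-29.2 points), Rnf43 (-27.4 points), Lrp5 (-28.9 points) and Wnt7b (-30.9 points).

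Of the tumor suppressors known to be methylated in human breast cancer, 59 promoters were tested, and 2 were higher and 1 lower (3.39 and 1.69%, against 1.04 and 2.29% of all promoters). In the fit over all 8 groups 7 of 57 were higher and 6 lower, against 3.91 and 6.30% of all promoters. Besides Dkk3, which is in both lists, Hic1, a transcriptional repressor (chr11:75161377-75170255), was at 19.1 and 16.6% against 10.7, 9.87 and 8.68% over 258 positions (8.08 points, adjusted p = 0.032, limma). Its cluster 55 bp from the TSS was at 56.6 and 53.3% against 26.4, 25.2 and 18.99%. Thbs1, thrombospondin 1, was lower (-6.86 points, adjusted p = 0.026). Hoxa5 and Sfn, the gene of 14-3-3 sigma, did not pass. Hoxa5 was at 4.91 and 7.35% against 30.04, 14.2 and 29.1% (adjusted p = 0.083), and Sfn was at 31.3 and 32.0% against 51.5, 56.0 and 69.0% (adjusted p = 0.068). The controls of both spread widely, over 14.2 to 30.04% at Hoxa5 and 51.5 to 69.0% at Sfn.

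Developmental transcription factors, many of them targets of the Polycomb repressor in stem cells, showed few called promoters in the fit of week 6 alone. Of 181 promoters 1 was higher and 2 were lower, shares of 0.552 and 1.10% that are not above the 1.04 and 2.29% of all promoters, and the median was 0.0848 points. In the fit over all 8 groups 13 of the 181 were higher and 4 lower, against 3.91% higher and 6.30% lower of all promoters. Both PyMT samples lay above all controls in 38 and below them in 36, against 14.0 and 21.2% of all promoters. Hoxd1 was at 3.81 and 4.49% in the PyMT samples and at 1.74, 1.70 and 1.65% in the controls (2.45 points, adjusted p = 0.029, limma). Irx3 was at 1.20 and 1.04% against 4.65, 3.97 and 5.53% (-3.60 points, adjusted p = 0.023), and Hoxb5 at 9.49 and 9.29% against 13.6, 13.3 and 14.0% (-4.23 points, adjusted p = 0.034). Within 500 bp of the TSS neither passed, with differences of -0.052 points at Irx3 and -0.319 points at Hoxb5, and Hoxb5 did not pass in the fit over all 8 groups either (adjusted p = 0.090, limma). Of the 992 clusters in or near these genes 2 gained and 5 lost methylation, against 0.594 and 1.96% of all clusters. Both gains were in coding exons of Nr2f2, an orphan nuclear receptor gene, by 43.9 and 41.7 points. The losses were at Pax3 (an intron, -54.0 points), Irx3 (-29.8 points), Alx4 (-28.0 points), Foxc1 (-24.1 points) and Tbx1 (-17.8 points).

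Imprinted promoters gave 0 higher and 1 lower of 31 and promoters of germline genes 0 of 27 (limma, against 1.04% higher and 2.29% lower of all promoters), with 3 and 2 at an unadjusted p under 0.05 and 1 and 0 called in the fit over all 8 groups. The one called was Kcnq1, at 0.285 and 0.208% against 2.002, 1.995 and 1.29% (-1.51 points, adjusted p = 0.044), with 0 DMCs among its 34 positions. At weeks 8, 10 and 12 this promoter differed by -0.395, -0.859 and -0.348 points and did not pass (adjusted p = 0.44, 0.16 and 0.59, limma). An intron cluster of that gene was at 29.2 and 32.5% against 82.1, 72.0 and 85.7%. The other called cluster of this list, in an exon of H13, was higher, at 81.7 and 79.9% against 37.7, 37.9 and 33.0% (44.6 points, adjusted p = 0.038). The median levels of the tested imprinted promoters were 34.9 and 37.2% in the PyMT samples and 39.5, 37.9 and 33.9% in the controls, so the groups overlapped. Of the enzymes that write, read or erase these marks, 1 of 32 promoters passed, that of Uhrf2 (2.47 points, adjusted p = 0.036), which did not pass within 500 bp of the TSS (0.082 points, adjusted p = 0.88).

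The features called at hyperplasia were then read in the later stages, whose PyMT and control mice were not used for the call. Of the 303 cluster gains, 288 were measured at week 8 and all 288 had the same sign, with 226 called (background 3.08% of clusters called higher). Of the 997 losses 954 were measured, all with the same sign, and 790 were called (background 6.59%). The median difference at the gains was 25.96 points at week 8, 29.4 at week 10 and 31.3 at week 12, against 25.5 at hyperplasia (background 5.53 and 5.28% called higher at weeks 10 and 12). At the losses it was -29.6, -35.5 and -34.5 points, against -30.6 (background 10.7 and 10.6% called lower). Promoter gains had a median of 4.62 points at hyperplasia and of 6.97, 8.92 and 11.8 points at weeks 8, 10 and 12, with 131, 140 and 132 of them called (background 6.50, 10.7 and 9.88%). The sign was the same in 152 of 159, 154 of 159 and 149 of 158 of these, and at week 10 there were 1 gain and 1 loss called in the opposite direction. Of the cluster gains 293 of 296 had the same sign at week 10. Promoter losses had a median of -7.15 points at hyperplasia and of -6.68, -8.39 and -7.07 points later, with 256 of 343, 320 of 346 and 265 of 345 called (background 4.78, 9.82 and 6.30%). The change of the difference from week 6 to week 12 passed in one limma fit over all 8 groups at 197 promoters upward (1.31%) and 12 downward (0.0800%), and at 16 clusters upward (0.0337%) and 4 downward (0.00842%). All 20 promoters with the largest differences kept their sign at weeks 8, 10 and 12, and 18 of them were called at week 12, without Tmem119 (adjusted p = 0.071) and Tbata (adjusted p = 0.14).

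**Figure D5:**
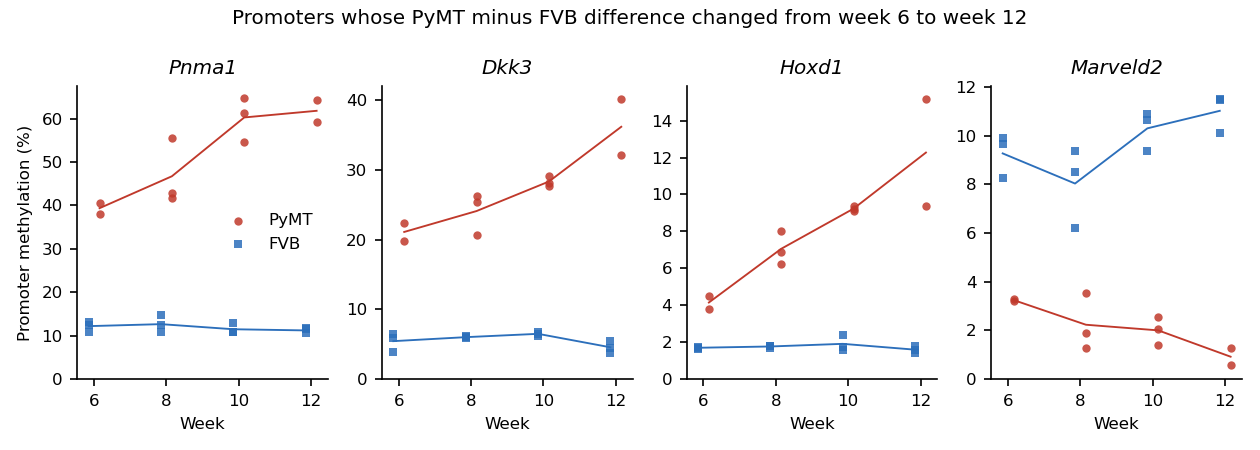
Promoter methylation (%) by week in 4 promoters, over the positions covered in all 22 samples, 1 point per sample (circles, PyMT; squares, FVB) with lines through the group means. All 4 were chosen among promoters called at week 6, where the PyMT samples lie above the controls at Pnma1, Dkk3 and Hoxd1 and below them at Marveld2.

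The reverse reading, from clusters called at week 8 to each hyperplasia mouse, uses samples with no part in the choice. At the 1490 clusters that gained methylation at week 8, PyMT replicates 1 and 2 of week 6 stood a median of 17.0 and 14.1 points above the week 6 controls, and were higher at 98.3 and 97.2% of them. At the 3190 clusters that lost methylation the medians were -19.7 and -18.1 points, and the mice were lower at 97.7 and 98.7%. Each week 6 control, set against the other two, deviated by a median of -2.78 to 1.56 points at the gains and of -2.17 to 3.81 points at the losses. Control replicate 3 was the one that deviated away from the PyMT direction in both. At week 8 itself the medians were 20.2 and -21.5 points, larger than in either hyperplasia mouse, but on the samples from which the clusters were chosen.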

How the data were processed

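ERRBS (enhanced reduced representation bisulfite sequencing) reads methylation from cytosines that bisulfite did not convert. The authors used Bismark and mm10 for alignment. The authors deposited for each CpG cytosine with at least 10 reads the coverage as counts of reads, not normalized and with strands kept apart, and the percent of reads that were methylated. The version of Bismark is not given in the sources used here. Here methylated reads were taken as coverage times percent, rounded. All 1625076 positions lay on a CpG of the reference. The sex chromosomes and mitochondria were left out of the tests. Groups, weeks and replicate numbers were taken from the labels. The week 6 samples had a mean coverage of 63.8 to 73.1 reads per position.

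The thresholds for DMCs are those of the study, which used methylKit. The test here was a logistic regression without covariates over all 1211575 positions, which the methods do not spell out. Promoter (45756 curated RefSeq transcripts) and cluster levels were means over positions of the level in percent, put on the scale log2((level + 1)/(101 - level)) and tested with limma 3.58.1 in R 4.3.3 (empirical Bayes with trend, Benjamini-Hochberg adjustment over all promoters or clusters tested). Later weeks were fitted alone, each with its own controls, and the change of a difference between weeks in one limma fit over all 8 groups. The tests were tried on simulated data. Levels were computed with pandas 2.3.3 and NumPy 2.4.6 (Python 3.11.15), exact tests with SciPy 1.17.1, and plots with matplotlib 3.10.9.

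The members and gene lists were chosen with earlier results of these data known. Promoters named are the 10 protein-coding gains and 10 losses with the largest difference among those called without overlap of the groups, for clusters the 8 and 8 largest (1 is not reported here), and of each list up to 4 called members with the largest difference. Called members beyond these, list clusters and members that did not pass were named after their values were seen. The alternatives were other coverage minimums, merged strands, an overdispersion correction, other differences, promoter widths, position minimums and gaps, percent in place of the log scale, no trend, read-weighted levels, a replicate block, a fit over all 8 groups, and leaving out each sample. Leaving out samples in the fit over all 8 groups was chosen after seeing the data. The remaining mice of the PyMT groups of weeks 6 and 12 were not analysed here.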

Additional observations from a re-analysis of the deposited data

Results flagged for a closer look

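The difference between PyMT and controls changed from week 6 to week 12 in 4 of the promoters named above, by the interaction contrast of one limma fit over all 8 groups (Benjamini-Hochberg adjustment over 14993 promoters). Over all of these the difference became more positive at 197 (1.31%) and more negative at 12 (0.0800%). The levels below are over the positions covered in all 22 samples.

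Pnma1 was at 40.6 and 38.1% in the hyperplasia mice and at 64.3 and 59.3% in the PyMT mice of week 12 (adjusted p = 0.0230), while the controls were at 12.4, 13.3 and 10.9% and at 11.7, 10.6 and 11.4%. Dkk3 was at 22.4 and 19.8% and then at 40.2 and 32.2% (adjusted p = 0.0199), with controls of 5.91, 3.89 and 6.52% and of 4.39, 5.52 and 3.77%. Hoxd1 was at 3.81 and 4.49% and then at 15.2 and 9.36% (adjusted p = 0.00252), with controls between 1.41 and 1.79%. Marveld2 went the other way, from 3.30 and 3.20% to 1.27 and 0.573% (adjusted p = 0.0437), and its controls were at 9.66, 8.24 and 9.91% and at 11.5, 10.1 and 11.5%. In the first 3 the PyMT samples of week 12 lay above those of week 6, and the controls of the 2 weeks overlapped. The cause of these changes was not tested.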

How the results depend on the processing

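In fits of week 6 alone, leaving out any one sample left 0 to 1 promoter gains, 0 to 3 promoter losses and 0 cluster gains or losses (limma), although 2030 to 2568 promoters and 8325 to 10375 clusters then had an unadjusted p under 0.05, against 2780 and 11211 with all samples. Hyper-DMCs numbered 16763 to 29864 and hypo-DMCs 47469 to 67744 with a sample left out, the fewest without PyMT replicate 1. The fit over all 8 groups gave 586 promoter gains, 944 promoter losses, 1344 cluster gains and 3318 cluster losses, and with each week 6 sample left out 262 to 553, 451 to 955, 511 to 1232 and 1797 to 3144, again fewest without PyMT replicate 1. It kept 142 of 157 promoter gains, 323 of 342 promoter losses, 277 of 283 cluster gains and 916 of 930 cluster losses called at week 6 alone.

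The labels give replicate numbers in both groups but do not say that they pair mice, and deviations of samples with the same number correlated by 0.0137 and -0.0373 over 30131 clusters. With the number as a replicate block, 0 promoters and 0 clusters passed in either direction (limma), with 1961 promoters and 7749 clusters at an unadjusted p under 0.05, and 23036 hyper-DMCs and 56843 hypo-DMCs.

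Requiring 25 points left 10584 hyper-DMCs and 35204 hypo-DMCs, and the overdispersion correction 10166 and 29842. Limma on single positions called 0 of either, with 66205 at an unadjusted p under 0.05 and 10 points. Within 500 bp of the TSS 4 promoter gains and 6 losses passed, with read-weighted levels 23 and 68, and with at least 5 points 76 and 210. Gaps of at most 50 bp left 0 clusters (9543 of 53915 at an unadjusted p under 0.05), gaps of at most 200 bp gave 666 gains and 2129 losses, and without the trend there were 457 gains and 1460 losses. Levels in percent in place of the log scale left 143 promoter gains and 240 losses. Of the 59 named promoters and clusters, 57 kept their direction wherever they were measured. Within 500 bp of the TSS Fzd2 and Fzd5 turned to -0.072 and -0.165 points, Fbn1, Thbs1, Lgr6 and Krt18 shrank to 0.361, -0.419, -0.518 and -4.14 points and did not pass, and Hic1 was at 17.4 points and did not pass. The other alternatives moved each count by less than 1.5 times, and the cause of these changes was not tested.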

Other observations

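Of the 181 developmental transcription factor promoters, 19 had a difference that became more positive from week 6 to week 12 (limma, one fit over all 8 groups, adjusted p under 0.05), and none more negative. Over all promoters these shares were 1.31 and 0.0800%. Among them Phox2a, a factor of autonomic neurons, differed by 0.161 points at hyperplasia and by 10.95 points at week 12 (adjusted p of the change 0.0047), and Foxd3, a neural crest factor, by 0.206 and 5.45 points (adjusted p = 0.00043). The list's median difference was 0.0848, 0.530, 0.647 and 1.25 points at weeks 6, 8, 10 and 12, and 28, 64 and 67 of its promoters were called higher at the 3 later weeks and 3, 15 and 7 lower. The medians of all promoters at those weeks lay between -0.0475 and 0.0160 points, and 6.50, 10.7 and 9.88% of all promoters were called higher and 4.78, 9.82 and 6.30% lower. The median of the luminal epithelial list was -1.72, -1.44, -2.04 and -1.64 points, and the difference of 1 of its 31 promoters changed from week 6 to week 12. Phox2a and Foxd3 were named after their values were seen.

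The share of clusters called as losses ran from 1.09% on chromosome 18 to 2.58% on chromosome 16, and that of gains from 0.203% on chromosome 13 to 1.23% on chromosome 18. No test was made of these shares.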
